A study of Rattus norvegicus with 11 samples.

Results

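The genes described here belong to the machinery that builds and remodels actin filaments. They are Wasl, Crk, Rac1, Cdc42, Rhoa, Cfl1, Actr2, Actr3, Pak1 and Limk1, and their members on the array were taken as every non-control probe whose gene name is one of these 10 names. That gave 15 probes of the 41012 non-control probes, which carry 35561 names in all. The probe A_44_P621475, named Wasl, and the probe A_44_P275249, named Crk, stand in the study's list of changed genes. These names were thus selected on the contrast between the same rats that is described below. The values of the Wasl and Crk probes in that contrast are given as a description, without p-values. Where these probes are said to be past the study's thresholds, which include a p-value, that is also a description and no independent test. The study's RT-qPCR did not bear out a difference with its assays named Wasl and Crk. The other 8 genes were chosen for their roles, but with earlier results of these data known. Their p-values below are therefore not those of a choice made blind to the data.

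RNA was measured in the medial prefrontal cortex (mPFC) of 11 male rats aged 4 months, with 1 single-colour Agilent array per rat. The 6 heroin rats had self-administered heroin for 14 days, and the 5 saline rats were drug-naïve animals that received yoked infusions of saline. Both groups then spent 14 days in enforced abstinence and were returned to the chambers for an extinction session, in which no drug was given, directly before the tissue was taken. A difference between the groups therefore belongs to the whole sequence of drug taking, abstinence and session, and in a piece of cortex fewer cells of a type and less RNA per cell cannot be told apart.

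As background, Wasl encodes N-WASP, a protein that is held folded until the GTPase Cdc42 binds it and that then drives the Arp2/3 complex to start branched actin filaments. Crk encodes an adaptor whose SH2 and SH3 domains join phosphorylated scaffold proteins to exchange factors for small GTPases. Rac1, Cdc42 and Rhoa encode GTPases that switch filament assembly on at the membrane, Pak1 and Limk1 encode kinases that act in sequence to phosphorylate cofilin, Cfl1 encodes cofilin, which severs filaments, and Actr2 and Actr3 encode the actin-related subunits of the Arp2/3 complex. In cortical neurons these proteins shape the dendritic spines that carry excitatory synapses.

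The name Wasl on the array went against the current reference. All 3 probes with that name cite the transcript NM_001034130, which the RefSeq gene table for the GRCr8 assembly lists under Iqub (gene ID 296936), a nearby gene on chromosome 4 that encodes a protein with IQ and ubiquitin-like domains. The same table gives Wasl the gene ID 682507, and the array holds 1 probe named LOC682507, A_43_P15664, described as similar to N-WASP. That probe is no member by name and was added after the values were seen. Of the 15 member probes, 11 cited a transcript that the table lists under the same gene name, 3 (those named Wasl) one that it lists under another gene, and 1 Rac1 probe none that could be matched. The 3 probes are therefore called the array-named Wasl probes, and LOC682507 is given beside them. The study also gives NM_001034130 for its RT-qPCR assay named Wasl, so which gene that assay measured was not settled here.

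The first 30 of the 60 bases of these probes are shown, since the results turn on which transcript each one binds. Positions are those of the array files on build rn3. The array-named Wasl probes A_44_P621475 (chr4:51180419-51180478), A_44_P785786 (chr4:51179468-51179527) and A_44_P638345 (chr4:51134795-51134854) lie on the minus strand, the listed one 951 bases from the second and the second 44673 bases from the third. LOC682507 (chr4:51293475-51293534, minus strand) lies 113056 bases from the listed probe, and the Crk probe lies at chr10:63053977-63054036 on the plus strand. Which exon or untranslated region each lies in was not analysed here.
A_44_P621475, array-named Wasl: aagagtcagatatctcaccagagcaagaat
A_44_P785786, array-named Wasl: gatggcacgctaagtgctatgtcgacagcc
A_44_P638345, array-named Wasl: tgaagagaaaacatccgtatacaagaaccc
A_43_P15664, LOC682507: agttccagcttcttcaggaaacaaagcagc
A_44_P275249, Crk: ctatacaattttcttacaggtgtcaaagca
None of these 5 probes was spotted more than once on an array.

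Some values of the whole series bear on every result. The median signal of an array ranged from 42.7 to 78.3 in the heroin rats and from 58.0 to 83.2 in the saline rats, and each array was divided by its own median, so levels below are multiples of the array median. Of the probes detected on all 11 arrays, 25555 could be tested, and their median change was 0.18 (log2, heroin minus saline), against 0.01 after quantile normalization and -0.03 after scaling to the 75th percentile. This shift depended on brightness, from a median of -0.04 in the dimmest of 10 equal bins of probes by signal to 0.24 in the brightest. A change near 0.24 in a bright probe is thus what the median bright probe showed, and the share of probes with a higher heroin mean was 78.7% over all tested probes, 97.7% in the brightest bin and 43.5% in the dimmest. The value after quantile normalization, where that share was 53.2%, is therefore given beside the changes. Arrays with the same rat number shared a scan time, which heroin rat 1 had to itself, and in the file headers all heroin arrays have position 4 and all saline arrays position 3, so array position and group cannot be told apart. Where nothing says otherwise, n = 6 heroin and n = 5 saline rats.

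By limma, 694 of the 25555 tested probes, or 2.72%, changed by 1.4-fold or more with p under 0.02 before adjustment, the study's pair of thresholds. They were 457 higher probes (1.79%) and 237 lower ones (0.927%). With Benjamini-Hochberg adjustment over all tested probes limma called 0 (0%), where 4723 had an unadjusted p under 0.05, and the methods' t-test called 0 as well, with 4127 at an unadjusted p under 0.05. The count of 694 depended on single rats, being 2352 without saline rat 5, 343 without saline rat 2 and 393 without saline rat 3. All 15 member probes were tested, none was saturated, and 2 were past both thresholds, the listed array-named Wasl probe and the Crk probe. As these were selected on that contrast, nothing is read from their share. The 13 other member probes were not past both thresholds.

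The listed array-named Wasl probe was lower in the heroin rats. Its signal in heroin rats ran from 0.516 over a median of 0.659 to 0.885 array medians, and the 5 saline rats gave 1.27, 1.03, 1.05, 0.784 and 1.20. Only saline rat 5, at 0.784, fell among the heroin rats, where rats 2 and 5 were above it. The means were 0.689 ± 0.136 (SD, n = 6) in heroin and 1.07 ± 0.186 (SD, n = 5) in saline, a change of -0.64 ± 0.16 (log2, limma's standard error), or 1.55-fold lower. After quantile normalization the change was -0.62, and with the scan time as a block it was -0.64. Within the 5 scan times that held both groups the heroin rat was lower in 4, with differences from -1.003 to 0.18. With the normexp background correction the change was -0.30 and the probe was no longer past both thresholds.

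The other array-named Wasl probes did not share one pattern. For A_44_P785786 the heroin rats ran from 0.512 over 0.691 to 0.820, and the saline rats gave 1.12, 1.01, 0.939, 0.744 and 0.711. The 3 highest values were saline rats and the groups overlapped, with means of 0.687 ± 0.105 (SD, n = 6) and 0.904 ± 0.175 (SD, n = 5) and a change of -0.39 ± 0.16 (log2), -0.37 after quantile normalization. After scaling to the 75th percentile its change was -0.61, and there this probe was past both thresholds. The heroin rat was lower in all 5 shared scan times. The third probe, A_44_P638345, was brighter, at 4.48 to 8.13 in heroin and 4.58 to 8.33 in saline rats. Its ranges nearly coincided, and its change was 0.09 ± 0.18 (log2), which turned to -0.13 after quantile normalization. The first 2 of these probes stood only 3.39 and 3.05 times above the detection limit of their arrays, on average, while the third stood 25.0 times above it.

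LOC682507, the probe that the reference ties to Wasl, was dim and differed little. The heroin rats gave 0.458, 0.801, 0.640, 0.693, 0.395 and 0.486 array medians, and the saline rats 0.574, 0.471, 0.487, 0.458 and 0.611. The heroin rats held both the lowest and the highest values, so the saline range lay inside theirs. The means were 0.579 ± 0.157 (SD, n = 6) and 0.520 ± 0.0679 (SD, n = 5), and the change was 0.12 ± 0.18 (log2), with p = 0.55 in the exact permutation test (two-sided) and an adjusted p of 0.67 in limma. After quantile normalization the change was 0.22 with an exact permutation p of 0.31. The signal was 2.14 times the detection limit on average, and the 95% interval of the change ran from -0.27 to 0.50.

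Crk was higher in the heroin rats. Its signal ran from 0.448 over 0.612 to 0.679 array medians in heroin, and the saline rats gave 0.345, 0.478, 0.324, 0.550 and 0.311. Heroin rat 5 was the low one of its group and lay below saline rats 3 and 5, while the other 5 heroin rats were above every saline rat. The means were 0.594 ± 0.0795 (SD, n = 6) and 0.401 ± 0.106 (SD, n = 5), a change of 0.59 ± 0.17 (log2) or 1.51-fold. The change was 0.75 after quantile normalization, 0.37 after scaling to the 75th percentile, where it was no longer past both thresholds, and 0.20 with normexp, where it was not either. Within shared scan times the heroin rat was higher in 4 of 5, with differences from -0.30 to 0.93, and leaving out single rats gave 0.51 to 0.71.

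The Crk signal was near the detection limit. Its level stood at percentile 1.52 of all tested probes and its signal was 1.96 times the detection limit on average. In saline rats 2, 4 and 6 it was 1.25, 1.20 and 1.47 times the limit, and in saline rats 3 and 5 it was 1.92 and 2.39 times. The heroin rats had 1.85 to 3.05 times, a range that holds saline rats 3 and 5. The median probe of its signal bin changed by -0.04 (log2). For the listed array-named Wasl probe, at percentile 15.0, the median probe of its bin changed by -0.01. Just over the fold limit of 1.4, the listed probes had folds of 1.55 and 1.51. The plot of these 5 probes by rat shows the values.

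**Figure D1:**
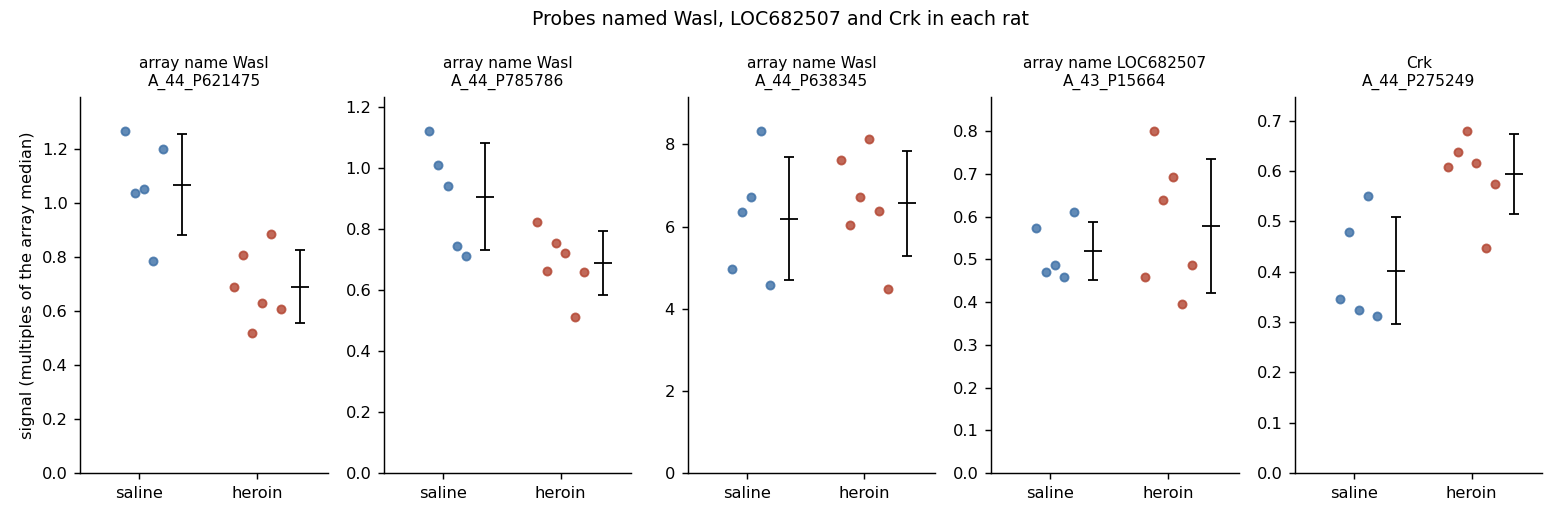
Signal in each rat (points, in multiples of the array median, linear axes from 0) of the 3 probes named Wasl on the array, the probe LOC682507 and the Crk probe, with the group mean and SD beside the points. The first 2 Wasl-named probes are lower in heroin rats with overlapping ranges, the third and LOC682507 overlap throughout, and Crk is higher in heroin rats, 5 of which lie above every saline rat.

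Among the GTPases, both Rac1 probes, both Cdc42 probes and both Rhoa probes had higher means in the heroin rats under the main scaling, by 0.19 to 0.37 (log2), and by -0.05 to 0.15 after quantile normalization. Rac1, whose protein drives the actin meshwork of membrane ruffles and spine heads, has the probes A_44_P395709 and A_44_P162583. The first ran from 3.16 over 3.55 to 4.13 array medians in heroin rats, and the saline rats gave 2.74, 2.50, 2.70, 3.40 and 2.69. Saline rat 5 was apart from its group and lay inside the heroin range, and the change was 0.34 ± 0.12 (log2), or 0.15 after quantile normalization. The exact permutation test gave p = 0.011, and 0.071 after quantile normalization, while the adjusted p in limma was 0.26. The second ran from 49.0 over 62.8 to 73.5 in heroin rats, and the saline rats gave 43.3, 44.6, 51.8, 63.9 and 45.6. Saline rat 5 was again the highest of its group, and the change was 0.34 ± 0.14, with an exact permutation p of 0.035, against 0.09 and 0.47 after quantile normalization. The second probe shares a stretch of 20 bases with another probe on the array, named AA799542.

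Cdc42, whose protein opens N-WASP, did not pass the exact permutation test with either probe. Its probe A_44_P555019 ran from 93.4 over 118 to 126 array medians in heroin rats, and the saline rats gave 92.6, 87.6, 104, 126 and 95.4. The second probe, A_44_P555021, ran from 48.7 over 65.5 to 70.6, and the saline rats gave 49.8, 47.2, 54.0, 68.2 and 54.3. In both, heroin rat 6 was low and saline rat 5 high, so the groups crossed. The changes were 0.19 ± 0.13 and 0.22 ± 0.14 (log2), with exact permutation p = 0.11 for each, and both turned below 0 after quantile normalization, to -0.05 and -0.02.

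Rhoa, whose protein acts on stress fibres and actomyosin contraction, has 1 probe that separated the groups and 1 that did not. In A_44_P992854, spotted 10 times per array, the heroin rats ran from 37.5 over 38.1 to 48.3 array medians and the saline rats gave 31.3, 35.2, 27.6, 33.8 and 26.2. Every heroin rat was above every saline rat, and among all tested probes 1.66% separated the groups in that direction and 0.129% in the other. The change was 0.37 ± 0.13 (log2) with an exact permutation p of 0.0022, the smallest that 462 divisions of the rats allow, and an adjusted p of 0.26 in limma. After quantile normalization the groups overlapped, as those of all 15 member probes did where 0.56% of all tested probes were without overlap, and the change was 0.13 with an exact permutation p of 0.29. The other probe, A_43_P13040, had means of 19.2 ± 2.61 (SD, n = 6) and 16.5 ± 1.64 (SD, n = 5) array medians, a change of 0.21 ± 0.13 and an exact permutation p of 0.091, and its change was -0.04 after quantile normalization.

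Pak1 and Limk1, the kinases that lie between the GTPases and cofilin, had higher means in the heroin rats under the main scaling. Pak1 ran from 19.5 over 22.3 to 30.9 array medians in heroin rats, and the saline rats gave 15.5, 18.4, 18.3, 23.2 and 17.6. Saline rat 5 lay above heroin rats 1, 2, 4 and 6, the heroin rat was higher in all 5 shared scan times, and the change was 0.33 ± 0.15 (log2), with an exact permutation p of 0.045, or 0.08 with p = 0.50 in the same exact test after quantile normalization. Limk1 ran from 72.0 over 91.3 to 122 in heroin rats, and the saline rats gave 87.7, 90.4, 80.9, 74.6 and 72.1. The saline rats all lay within the heroin range, and the change was 0.23 ± 0.15 with an exact permutation p of 0.13, and it was 7.9e-05 after quantile normalization.

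The Cfl1 probe had the widest spread of the member probes in both groups, with a coefficient of variation of 30.1% in heroin and 27.1% in saline rats. The heroin rats gave 29.4, 28.0, 30.9, 23.0, 27.0 and 10.6 array medians, and the saline rats 16.5, 15.8, 18.8, 28.9 and 18.3. Heroin rat 6 was the lowest of all and saline rat 5 lay with the other heroin rats. The means were 24.8 ± 7.47 (SD, n = 6) and 19.6 ± 5.32 (SD, n = 5), a change of 0.29 ± 0.25 (log2) with an exact permutation p of 0.35. Without heroin rat 6 the change was 0.52 and the probe was past both thresholds. The array of heroin rat 6 had the lowest median signal, 42.7, and whether that bears on this probe was not tested.

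In the Arp2/3 complex, both actin-related subunits had higher heroin means under the main scaling. For Actr2 the heroin rats ran from 208 over 241 to 276 array medians, and the 4 saline rats with a usable spot gave 195, 175, 198 and 180, as the spot of saline rat 5 was marked non-uniform and left out. None of these 4 reached the heroin range. Over all tested probes, of every brightness and most of them measured in every rat, 1.66% separated the groups in that direction. The marked spot of saline rat 5, however, read 241 array medians, in the middle of the heroin range. The change was 0.37 ± 0.12 (log2) with an exact permutation p of 0.0048 without that spot, and with it 0.29 ± 0.12 with p = 0.019 in the same exact test and overlapping groups. It was 0.10 with p = 0.20 in the same exact test after quantile normalization, when the groups overlapped. Actr3 ran from 25.5 over 35.0 to 40.9, and the saline rats gave 23.0, 26.2, 25.0, 31.9 and 27.2. Saline rat 5 was the highest of its group and heroin rat 5 the lowest of its own, so the ranges overlapped, and the change was 0.35 ± 0.14 with an exact permutation p of 0.028, or 0.10 with p = 0.34 in the same exact test after quantile normalization. The Actr2 probe shares a stretch of 20 bases with another probe, named BE107525.

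**Figure D2:**
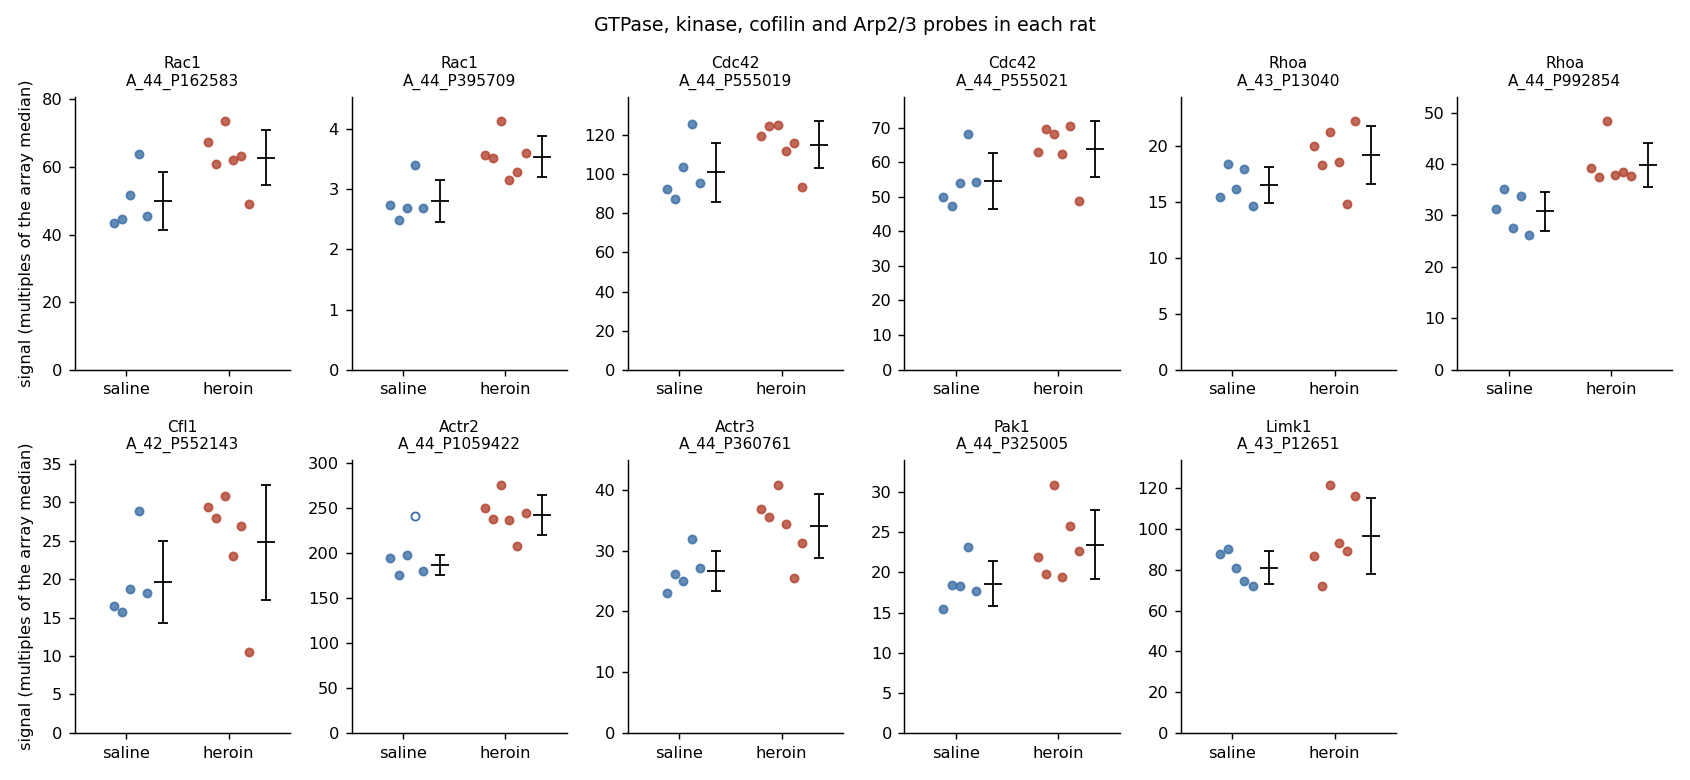
Signal in each rat (points, in multiples of the array median, linear axes from 0) of the 11 probes of Rac1, Cdc42, Rhoa, Cfl1, Actr2, Actr3, Pak1 and Limk1, with the group mean and SD beside the points. The heroin mean is the higher one in every panel, the ranges of filled points are apart only for Rhoa A_44_P992854 and Actr2, where Actr2 rests on 4 saline rats and the marked spot of saline rat 5 (open point, 241, in neither mean nor SD) lies inside the heroin range. Saline rat 5 is often the highest saline point.

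The sequences of 5 of these probes are shown whole because they carry GTPase, cofilin and Arp2/3 values above. In the array files the 60 bases of each are placed over a longer stretch of the rn3 genome, from 163 to 2615 bases, and exon boundaries were not looked up. The Rac1 probe lies within chr12:11419995-11421852 (plus strand), the Cdc42 probe within chr5:156127680-156127842 (minus), the Cfl1 probe within chr1:208290000-208290254 (plus), the Actr2 probe within chr14:100876163-100878777 (minus) and the Actr3 probe within chr13:37877478-37879344 (minus).
A_44_P395709, Rac1: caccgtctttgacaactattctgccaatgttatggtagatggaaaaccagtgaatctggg
A_44_P555021, Cdc42: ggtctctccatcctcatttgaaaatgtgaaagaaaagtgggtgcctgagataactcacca
A_42_P552143, Cfl1: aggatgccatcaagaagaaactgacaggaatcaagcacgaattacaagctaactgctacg
A_44_P1059422, Actr2: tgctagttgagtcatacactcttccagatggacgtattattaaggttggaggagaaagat
A_44_P360761, Actr3: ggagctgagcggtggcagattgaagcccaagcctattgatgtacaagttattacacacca
No part of them is marked, since no motif or mismatch was compared.

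Across their tests, the 11 probes of the 8 genes chosen by role all had higher heroin means, as did 20114 of the 25555 tested probes. In the signal bins of these 11 probes that share ran from 84.7% to 97.7%. Of the 11, 6 had an exact permutation p under 0.05, and these genes were chosen with earlier results of these data known. Of the 10 measured in every rat, which leaves out Actr2, it was 5, against 19.6% of all tested probes measured in every rat. After quantile normalization none of the 11 did, against 6.77% of those probes, and after scaling to the 75th percentile none did either. The shares of 19.6% and 6.77%, like those of probes without overlap given above, cover probes of every brightness, and none was computed for equally bright probes. Leaving out heroin rat 1 or 3, or saline rat 2, 3, 4 or 6, brought the 6 to 3 under the main scaling. The direction of Cdc42 and of Rhoa A_43_P13040 thus depended on the scaling, and the changes of 0.19 to 0.37 stood beside medians of 0.18 to 0.25 over all tested probes of the same signal bin. The heroin rat was higher in 3 to 5 of the shared scan times for each probe.

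**Figure D3:**
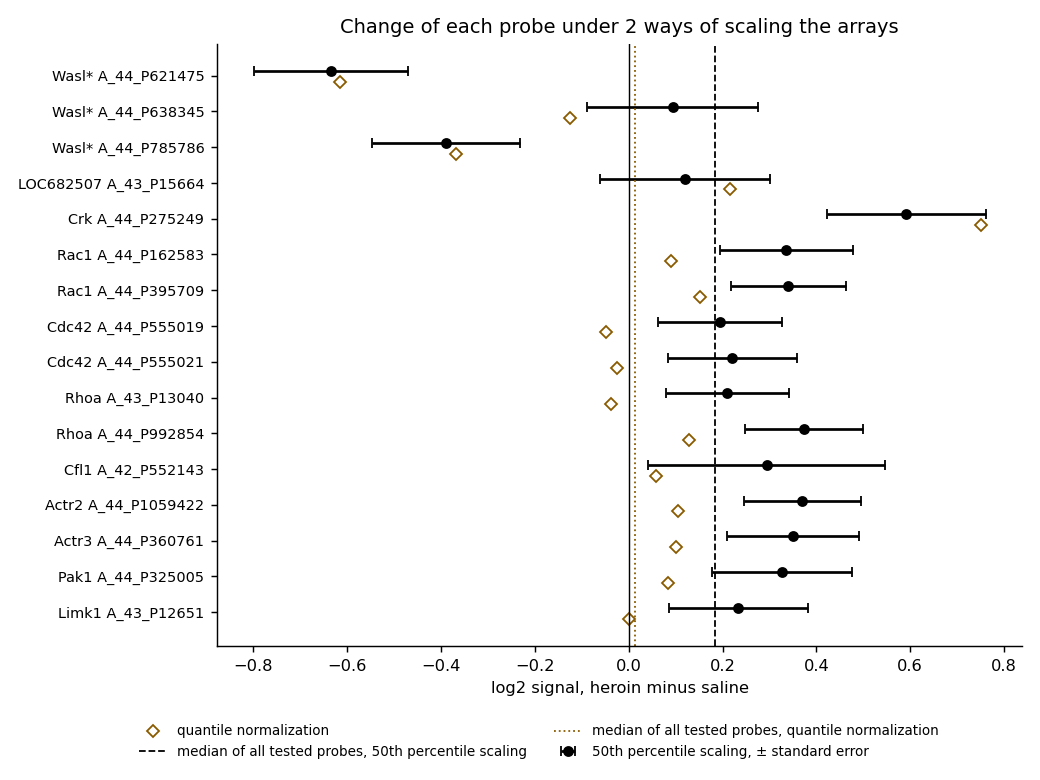
Change of each probe (log2 signal, heroin minus saline) under the main scaling with its standard error (filled points) and after quantile normalization (open diamonds), where Wasl* marks the array-named probes and vertical lines give the median of all tested probes, 0.18 and 0.01. The role members move from 0.19 to 0.37 down to -0.05 to 0.15. Under the 2 scalings shown the listed Wasl-named probe is near -0.6 and Crk above 0.5, and with normexp, not shown, they were -0.30 and 0.20.

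**Figure D4:**
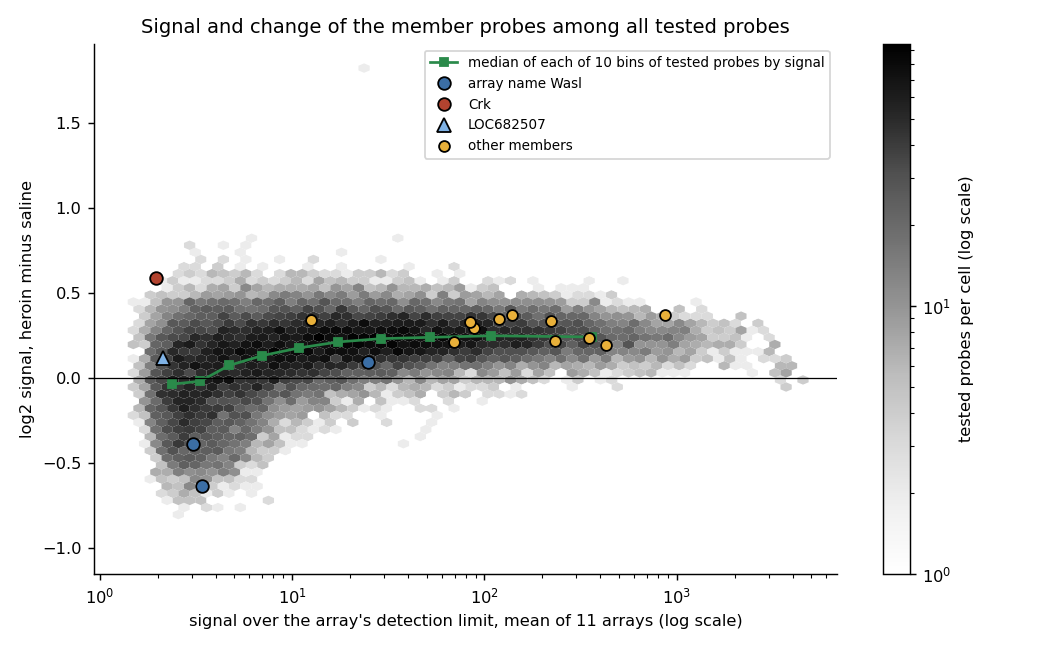
Change (log2 signal, heroin minus saline) against the mean signal over the detection limit (log axis) for all 25555 tested probes (grey cells, darker for more probes), with the median of each of 10 bins by signal and the member probes marked. The role members lie near the line of medians at high signal, and Crk and 2 of the Wasl-named probes lie at the dim end, where the spread of changes is widest.

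Wider lists of the pathway were described in the same fit, 236 genes of which 191 had a probe and 280 probes were tested. In the GTPases, 1 of 18 probes was past both thresholds, in exchange factors and their inhibitors 1 of 67, in the WASP family and WAVE complex 1 of 35, in the Arp2/3 complex 1 of 11, in Crk and its partners 1 of 32, in the effector kinases 0 of 33, in cofilin and its regulators 0 of 14, and in actins, formins and filament binding proteins 1 of 72. In all, 6 of the 280 were past both thresholds, beside 2.72% of all tested probes. The listed array-named Wasl probe and the Crk probe are 2 of the 6 and were selected on this contrast. Nothing is read from a count that holds them, and without the member probes it was 4 of 265. Of the 6, 5 were higher and 1 lower, which is the array-named Wasl probe. It stands in the WASP family list by its array name, while the current reference lists its transcript under Iqub. The 6 became 17 without heroin rat 6 and 19 without saline rat 5. The median change of a list lay between 0.18 (effector kinases) and 0.32 (Arp2/3 complex), beside 0.18 over all tested probes, and between -0.03 and 0.08 after quantile normalization, beside 0.01. All 11 Arp2/3 probes, all 18 GTPase probes and all 14 probes of cofilin and its regulators had higher heroin means under the main scaling, but not after quantile normalization, and over the whole array the share with a higher heroin mean was 78.7%. After quantile normalization 1.79% of all tested probes were past both thresholds, and 3 of the 280, namely those of Arhgef3, Crk and the array name Wasl. Without the member probes it was 1 of 265.

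Outside the members, 4 genes of these lists had a probe past both thresholds, all higher in heroin rats. Rnd1, an atypical GTPase that opposes RhoA, ran from 89.8 over 97.5 to 110 array medians in 5 heroin rats and from 43.9 over 73.9 to 98.6 in saline rats, and its change of 0.57 ± 0.21 (log2) became 0.32 after quantile normalization. Arpc4, which encodes a subunit of the Arp2/3 complex, ran from 2.47 over 3.70 to 5.33 in heroin rats and from 2.19 over 2.37 to 3.23 in saline rats, and its change of 0.53 ± 0.18 became 0.36. Cobl, the gene of the actin nucleator cordon-bleu, ran from 4.13 over 5.79 to 6.92 in heroin rats and from 3.13 over 3.72 to 5.39 in saline rats, and its change of 0.55 ± 0.16 became 0.35. All 3 were past both thresholds under the main scaling but not after quantile normalization.

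Arhgef3, the gene of a RhoA exchange factor, had the largest change of the lists, but few arrays measured it. Its spot was usable in 2 heroin rats, at 81.1 and 110 array medians, and in 3 saline rats, at 38.6, 47.0 and 62.3. On these the change was 0.97 ± 0.27 (log2), 0.70 after quantile normalization, and with the marked spots kept it was 0.55. The adjusted p in limma was 0.26 for each of these 4 genes.

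**Figure D5:**
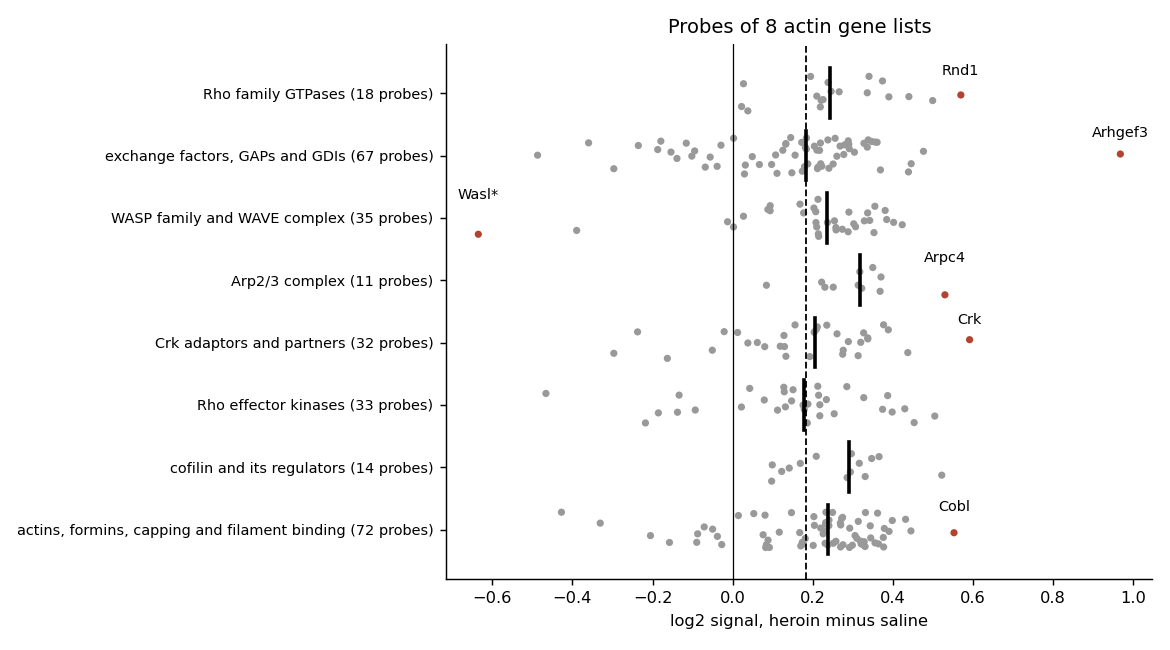
Change (log2 signal, heroin minus saline) of each tested probe of the 8 gene lists, with the list median (bar) and the median of all tested probes (dashed line, 0.18). Red points are past both thresholds, with Wasl* for the array-named probe, and Arhgef3 rests on 2 heroin and 3 saline arrays.

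Markers of the cell types in the tissue were measured in the same arrays. All 18 probes of the neuron list were detected on every array. Of the lists for neurons, astrocytes, oligodendrocytes, microglia, endothelium, blood and striatum, the only probe past both thresholds was that of Ptprc, the leukocyte phosphatase CD45, in the microglia list, at -0.50 ± 0.16 (log2) and 2.91 times the detection limit, and its change was -0.18 with normexp and -0.44 after quantile normalization, where it was not past both thresholds in either case. List medians ran from -0.02 (striatum) to 0.19 (astrocytes), beside 0.18 over all tested probes. After quantile normalization they ran from -0.18 (endothelium) to -0.03 (astrocytes), beside 0.01. The mean level of the 15 microglia probes, each relative to its own mean, ranged from 0.783 to 1.23 in heroin rats and from 0.816 to 1.09 in saline rats, and that of the striatum list from 0.855 to 1.08 and from 0.805 to 1.70. Wider ranges were those of the oligodendrocyte list, 0.627 to 1.65 in heroin and 0.635 to 1.55 in saline rats. The blood list ranged from 0.498 to 1.44 in heroin and from 0.663 to 1.67 in saline rats. Their part in the results above was not tested.

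How far probes of one gene vary together among rats does not use the contrast that selected Wasl and Crk, since group means are removed first. For the 6 pairs of probes of one gene, Pearson's r over the 11 rats was 0.94 for Cdc42 (permutation p within groups 0.0012, adjusted 0.0069, Spearman's rho 0.83, adjusted permutation p 0.029), and it was 0.70 without heroin rat 6 and saline rat 5. For Rac1 r was 0.64 (permutation p 0.061, adjusted 0.18, rho 0.41 with permutation p 0.24), and for Rhoa 0.54 (permutation p 0.093, adjusted 0.19, rho 0.45 with permutation p 0.19). Without the 2 rats farthest from the median, r was 0.64 for Rac1 and 0.87 for Rhoa. The array-named Wasl probes gave -0.44, -0.13 and 0.10 (permutation p 0.21, 0.70 and 0.77, adjusted 0.31, 0.77 and 0.77, rho -0.43, -0.04 and 0.20), and -0.18, -0.42 and -0.27 without those 2 rats. Of the 6 pairs only that of Cdc42 passed the test after adjustment. For Rac1 r fell to 0.22 after quantile normalization and to 0.25 after scaling to the 75th percentile, while with normexp it was 0.78 and passed, with an adjusted permutation p of 0.020.

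As a description, the named probes closest to each listed probe were sought over the 11 rats after quantile normalization, with group means removed. For the listed array-named Wasl probe these were Gpt2 (r = 0.96), Myh4 (0.95), RT1-A3 (0.95), St8sia6 (0.94) and Niban (0.94) of 11019 compared. For Crk they were Nqo1 (r = 0.96), Rps6ka5 (0.92), Dpp8 (0.91), Itgav (0.87) and Spock3 (0.86) of 11021. The listed Wasl-named probe and Crk gave r = -0.83 with each other, where the other member probes gave -0.27 to 0.39 with either. All these values share the same 11 arrays and their scaling, and none of the named genes is in the actin lists. The named genes are the highest of many correlations over few rats, and whether values this high arise without any link was not tested. Both listed probes were also dim, at 3.39 (Wasl-named) and 1.96 (Crk) times the detection limit.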

How the data were processed

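RNA from the mPFC of 6 heroin self-administering and 5 yoked saline rats was hybridised to single-colour (Cy3) Agilent arrays. The methods give 12 arrays with 6 per group, and 11 were analysed here. The authors deposited Feature Extraction output (version 9.5.1.1 per the file headers) with a background-subtracted signal intensity per spot, not scaled between arrays, and a table of relative values, each a ratio to the gene's median, made in GeneSpring. Positions in the array files are on build rn3.

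From the intensities, marked spots (non-uniform or population outliers) were dropped, a floor of 5 was set, the spots of a probe were averaged in log2 and arrays were scaled to the 50th percentile of their non-control probes. A probe was detected where at least 0.5 of its spots were well above background. Tests covered probes detected on all 11 arrays with 2 or more usable arrays per group. The detection limit of an array is the lowest signal among its spots well above background. Groups were compared with limma 3.58.1 in R 4.3.3 (lmFit and eBayes, two-sided), which was tested on simulated data first, and single probes with an exact permutation test over the 462 divisions of the rats (210 where a saline value was missing). Probes named were all those of the members, list genes with a probe past both thresholds and the 5 named probes closest to each listed probe. Accessions were looked up in the RefSeq table of assembly GRCr8, and of the 312 probes of the lists 296 were matched by symbol and 16 by accession. The members and lists were chosen with earlier results of these data known. Each array is 1 rat, and their number limits the precision. Alternatives were the 75th percentile, quantile normalization, normexp (offset 50), the authors' relative values, other detection filters, marked spots kept, the methods' t-test, the replicate block, averaging a gene's probes and leaving out each rat. The authors' p-values and RT-qPCR values were not analysed here.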

Additional observations from a re-analysis of the deposited data

Results flagged for a closer look

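In 5 of the 40 groups of 4 to 6 rats examined, 1 rat lay far from the others of its group by Dixon's criterion at the 95% level, and chance gives about 1 in 20. Heroin rat 6 was the lowest of its group for Cdc42 A_44_P555021 at 48.7 array medians, for Cfl1 at 10.6 and for Cobl at 4.13. Saline rat 5 was the highest of its group for Cfl1 at 28.9, and heroin rat 3 for Rhoa A_44_P992854 at 48.3. Without heroin rat 6 the Cfl1 change was 0.52 (log2) in place of 0.29, and for Rhoa A_44_P992854 leaving out single rats gave 0.32 to 0.42.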

How the results depend on the processing

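The count of 694 probes past both thresholds was 457 after quantile normalization, 126 with normexp, 1560 with no detection filter, 1067 with detection in 1 group, 308 with the methods' t-test and 343 to 2352 when single rats were left out, with the extremes without saline rat 2 and saline rat 5. The 2 member probes were also 2 at the 75th percentile, but there A_44_P785786 (-0.61) was past both thresholds and Crk was not. They became 0 with normexp and 1 when the probes of a gene were averaged, where the array name Wasl had -0.31 and was not past both thresholds, and 2 to 3 without single rats. The 6 probes of the actin lists became 3 after quantile normalization, 1 with normexp, 3 with averaged probes and 4 to 19 without single rats (17 without heroin rat 6, 19 without saline rat 5). The 6 role probes with an exact permutation p under 0.05 became 0 after scaling to the 75th percentile, 0 after quantile normalization, 3 with normexp and 3 to 8 without single rats. Changes that turned sign were those of Wasl-named A_44_P638345 (-0.12 at the 75th percentile, -0.13 after quantile normalization, and -0.0061 to 0.21 without single rats, the lowest without saline rat 6), Cdc42 A_44_P555019 (-0.023 and -0.049), Cdc42 A_44_P555021 (-0.025 after quantile normalization), Rhoa A_43_P13040 (-0.0080 and -0.037) and LOC682507 (-0.098 at the 75th percentile). For agreement, r of Wasl-named A_44_P621475 and A_44_P785786 was 0.36 at the 75th percentile and -0.46 to 0.23 without single rats, of A_44_P638345 and A_44_P785786 -0.076, -0.021 with normexp and -0.15 to 0.39 without single rats, of A_44_P621475 and A_44_P638345 -0.71 to -0.19 without single rats, and of the Rac1 probes 0.22 after quantile normalization, 0.25 at the 75th percentile, 0.78 with normexp and 0.32 to 0.84 without single rats. Without heroin rat 6 the pairs at -0.71 and 0.84 passed the test after adjustment. With marked spots kept the Actr2 change was 0.29 and its groups overlapped. Rhoa kept 0.45 to 0.70 and Cdc42 0.91 to 0.98. The cause of these differences was not tested.

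Same-numbered rats shared a scan time, and their deviations from the group means correlated with r of 0.38, -0.13, 0.35, 0.02 and -0.24. The labels do not say whether equal numbers mark yoked rats, and these correlations cannot decide it, as yoking need not leave correlated expression. Each saline rat correlated best with its own number only for numbers 2 and 4. With the replicate block the counts were 806 probes, 2 members and 5 probes of the actin lists, and Rnd1 (0.47) was no longer past both thresholds. A random block was not run, since the scan times held both groups, and the slide beyond scan time and array position was not analysed here. Signals near the detection limit limit Crk, LOC682507 and 2 of the Wasl-named probes.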
